A study of Mus musculus with 60 samples.

Results

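The genes described here are 9 components and transcriptional targets of the Hippo pathway, followed in primary mouse hepatocytes over 32 h of culture with hepatocyte growth factor (HGF), interleukin-6 (IL-6), both or neither. Ccn1 (Cyr61) and Ccn2 (Ctgf) encode secreted matricellular proteins, Ankrd1 encodes a nuclear ankyrin-repeat cofactor, and Axl encodes the receptor tyrosine kinase for Gas6. All 4 are known YAP targets. Amotl2 encodes an angiomotin that binds and retains YAP, Lats2 the kinase that phosphorylates YAP, and Ajuba a LIM-domain protein that restrains the LATS kinases. Yap1 encodes the coactivator itself and Tead1 a DNA-binding partner that carries it to chromatin. The members were chosen by symbol, with the brightest probe set standing for a gene, and make up 9 of the 18194 genes that have a probe set of their own on the array. All 9 were among the 14513 genes bright enough to test, meaning above the 40th percentile of an array's values on 2 arrays or more. Axl met that mark on 17 of 60 arrays and the other members on all 60.

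In the Hippo pathway, MST kinases and their adaptor SAV1 activate the LATS kinases, which phosphorylate YAP and its relative TAZ and so keep them out of the nucleus. When the kinases are off, YAP and TAZ enter the nucleus and act through TEAD factors on genes for growth, matrix and the cytoskeleton. Several targets, LATS2 and AMOTL2 among them, feed back as inhibitors of YAP. In liver the pathway restrains organ size, and loss of its kinases in the mouse leads to hepatocyte overgrowth. Ccn1, Ccn2 and Ankrd1 also answer to serum response factor (SRF) and other inputs, and an mRNA level does not report the phosphorylation or location of YAP.

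The cells came from male C57BL/6N mice aged 8 to 12 weeks. A preparation held hepatocytes of 1 animal or a pool of at most 3. They were grown below confluence on collagen I, and every group, unstimulated cells included, had spent 24 h without serum in medium with 100 nM dexamethasone. The groups were IL-6 plus HGF (both at 40 ng/ml), IL-6 alone (recombinant human, 40 ng/ml), HGF alone (recombinant mouse, 40 ng/ml) and unstimulated cells, each sampled on 2 arrays at 7 times, first at 0.5 h, then at 2 h, 4 h and 8 h, and lastly at 16 h, 24 h and 32 h. Unstimulated cells were also sampled at 0 h on 4 arrays, which makes 60 arrays in 29 groups. Although the protocol speaks of triplicates, the table used here holds 2 arrays per group, and nothing marks which preparation an array came from, so the p-values measure the spread between arrays. Arrays of a group correlated at 0.996 to 0.998 over all probe sets. Values are log2 intensities of Affymetrix whole-genome mouse arrays, so that a difference of 1 is a doubling of signal. Intensities of different probe sets are not comparable as amounts of mRNA.

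TEAD factors are known to bind the motif GGAATG, and the RefSeq windows of 250 bases before the annotated start (GRCm38.p6) were searched for it on both strands (GGAATG or CATTCC, which are the same site read from either strand). Windows were at hand for 7 of the 9 members: Ccn1, Ankrd1, Amotl2, Lats2, Yap1, Ajuba and Axl. The motif occurred in 6 of these genes, against 12.6% of all 32851 windows of the same length. Since Ccn1, Ankrd1 and Amotl2 are textbook TEAD targets, this count is a description of known targets and not an independent result. The windows of Ccn1 (chr3:145649986-145650235, minus strand), Ankrd1 (chr19:36119845-36120094, minus strand), Amotl2 (chr9:102717554-102717803, plus strand) and Ajuba (chr14:54577662-54577911, minus strand) are printed 5′ to 3′ in the direction of transcription. The first 3 are shown because the comparisons between stimuli turn on these genes, and Ajuba because it carried the motif more than once. Capitals mark the motif.
Ccn1: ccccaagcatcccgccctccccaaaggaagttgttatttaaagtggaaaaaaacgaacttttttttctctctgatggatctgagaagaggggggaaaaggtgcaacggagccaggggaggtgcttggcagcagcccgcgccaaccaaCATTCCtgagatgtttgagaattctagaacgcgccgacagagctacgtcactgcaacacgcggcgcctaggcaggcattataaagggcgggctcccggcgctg
Ankrd1: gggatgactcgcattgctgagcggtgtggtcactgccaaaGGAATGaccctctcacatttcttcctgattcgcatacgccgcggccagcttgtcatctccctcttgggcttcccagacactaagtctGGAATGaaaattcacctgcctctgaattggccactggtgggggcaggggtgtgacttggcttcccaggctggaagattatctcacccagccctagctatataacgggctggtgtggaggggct
Amotl2: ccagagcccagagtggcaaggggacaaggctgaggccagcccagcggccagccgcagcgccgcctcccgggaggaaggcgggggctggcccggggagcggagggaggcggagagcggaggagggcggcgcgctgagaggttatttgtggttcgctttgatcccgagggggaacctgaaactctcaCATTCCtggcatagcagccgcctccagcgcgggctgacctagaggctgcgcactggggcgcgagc
Ajuba: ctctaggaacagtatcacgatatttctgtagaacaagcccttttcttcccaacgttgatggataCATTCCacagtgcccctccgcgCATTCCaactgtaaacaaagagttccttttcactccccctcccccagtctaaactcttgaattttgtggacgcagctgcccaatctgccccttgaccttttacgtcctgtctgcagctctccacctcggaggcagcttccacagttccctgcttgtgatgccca
Counted from the start site, the motif began at base -103 in Ccn1, at -210 and -123 in Ankrd1, at -65 in Amotl2 and at -186 and -164 in Ajuba. Yap1 held it at -141 and Axl at -233. Neither of the Lats2 windows held these letters. The AP-1 motif TGANTCA (6.75% of all windows), the STAT motif TTCNNNGAA (7.02%) and the CArG box bound by SRF (1.47%) occurred in none of the 8 windows of the members.

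Hepatocyte markers were bright on every array, with Alb, the gene of serum albumin, between 14.15 and 14.44. Markers of other liver cells were detected at lower levels, as given after the pathway lists. Arrays differed in the signals of spiked bacterial RNA and of actin. The difference between the 3′ and 5′ probe sets of the spiked dap control was 1.18 to 1.52 on the 10 unstimulated arrays of 0 to 4 h, against 2.46 or more on all others, stimulated arrays of the same hours included. Contrasts of a stimulus with unstimulated cells at 0.5 to 4 h therefore cross this dap difference, whereas contrasts among stimuli and those at 8 to 32 h do not. From 8 h on the same difference reached 3.99 on stimulated arrays, against 2.80 on unstimulated ones. In those hours bioB, another spiked control, still ranged from 5.38 to 7.05 on stimulated arrays, against 8.13 to 8.40 on unstimulated ones, without overlap, so contrasts with unstimulated cells in those hours cross the bioB difference. For actin, a gene of the cells themselves, the difference between 3′ and 5′ probe sets was 0.20 to 0.27 on unstimulated arrays of 0 to 4 h. It was 0.42 to 0.72 on those of 8 to 32 h. On stimulated arrays it was 0.37 to 0.58 at 0.5 to 4 h and 0.39 to 0.96 at 8 to 32 h. The part of these control differences in the results was not tested. The unstimulated change from 4 to 8 h, less the mean change of the 3 stimulated arms, was computed for each gene. It came to -0.39 for Ajuba, 0.31 for Ankrd1, 0.22 for Ccn1 and 0.14 or less in size for the other members. The median size over all genes was 0.15. Responses to the stimuli that change between 4 and 8 h enter this value too and cannot be told apart from the dap difference.

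Arms were compared hour by hour and tested with 1 moderated F-test per gene and comparison (limma, Benjamini-Hochberg adjusted over 14513 genes, threshold 0.05), with the direction read at the hour of the largest difference. Under IL-6 plus HGF against unstimulated cells all 9 members passed, 6 higher and 3 lower. Of all genes 68% passed, 31.3% higher and 36.7% lower. Under IL-6 against unstimulated cells 7 passed, 5 higher and 2 lower, where 55.1% of all genes passed, 23.4% higher and 31.7% lower. Ccn2 (adjusted p = 0.407) and Axl (adjusted p = 0.231) did not. HGF against unstimulated cells gave 9, of which 6 were higher and 3 lower, beside 62.6% of all genes, 29.8% higher and 32.8% lower. With so many genes past the test, passing it says little about the members, and their hours, sizes and directions carry the description.

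Restricted to 8 to 32 h, the same test called 9 members under IL-6 plus HGF (7 higher, 2 lower), where 57.2% of all genes were called, 28.5% higher and 28.7% lower. Over those hours IL-6 alone called 6 (5 higher, 1 lower), beside 42% of all genes, 18.7% higher and 23.3% lower. HGF called 9 (5 higher, 4 lower), beside 55.1% of all genes, 27.2% higher and 27.9% lower. The order in which the members are given next follows their roles, from secreted and nuclear targets to regulators and effectors.

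Ccn1 responded early to HGF. At 2 h it stood at 11.80 and 11.73 under HGF, against 11.04 and 11.06 in unstimulated cells. The HGF arrays lay above both unstimulated arrays, a difference of 0.72 (SE 0.05, 1.65-fold, limma F-test adjusted p = 2.68e-21). At 8 h it was 11.47 and 11.46 under HGF, against 11.07 and 11.11 in unstimulated cells, a difference of 0.37. The sign then turned: at 24 h both HGF arrays (12.05 and 12.07) lay below the unstimulated ones (12.31 and 12.37), and the difference was -0.28. Under IL-6 the differences of Ccn1 were negative at all 7 hours, with overlapping arrays at 0.5 and 16 h, and reached -0.48 at 32 h (SE 0.05, adjusted p = 1.88e-13). At 32 h the IL-6 arrays read 11.19 and 11.24, against 11.72 and 11.67 in unstimulated cells, without overlap.

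Ccn2, whose product modulates TGF-β and integrin signalling, was higher under HGF through 16 h. At 8 h it reached 13.06 and 13.09 under HGF, against 12.28 and 12.27 in unstimulated cells. That difference of 0.80 (SE 0.13, 1.74-fold, adjusted p = 1.70e-08) was the largest of a run of positive ones, from 0.38 at 0.5 h to 0.50 at 16 h. At 24 h both HGF arrays (12.78 and 12.84) lay below both unstimulated ones, by -0.19. At 32 h the 2 HGF arrays disagreed, at 12.50 and 11.44, on either side of the unstimulated arrays at 12.14 and 12.11. Under IL-6 no hour differed by more than 0.25 in size and the test was not passed. With only the IL-6 and unstimulated arrays in the fit it was (adjusted p = 0.0286).

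Ankrd1 answered both stimuli, with different time courses. Under HGF it read 9.64 and 9.42 at 2 h, against 8.72 and 8.64 in unstimulated cells, a difference of 0.85 (SE 0.07, 1.80-fold, adjusted p = 3.04e-19). By 24 h it was 9.14 and 9.25 under HGF, against 9.91 and 9.87 in unstimulated cells. That late difference of -0.69 (SE 0.07) was opposite in sign. At 32 h the HGF arrays, at 8.29 and 7.98, were the lowest of all groups for this gene. Under IL-6 Ankrd1 was higher at every hour, by 0.60 at 2 h (SE 0.07, adjusted p = 2.40e-15) and by 0.36 to 0.48 from 8 to 32 h. At 16 h the IL-6 arrays read 9.76 and 9.70, against 9.20 and 9.30 in unstimulated cells, again without overlap. A second Ankrd1 probe set correlated with the first at 0.96 over the 29 group means. Its differences at 2 h were smaller, at 0.42 for HGF and 0.24 for IL-6. For Ccn1, Ccn2 and Ankrd1, the contrasts with unstimulated cells at 0.5 to 4 h cross the dap difference, whose part was not tested. Contrasts between stimuli do not cross it. For Ankrd1, IL-6 plus HGF minus HGF was 0.10 at 2 h, with overlapping arrays, and 0.65 at 4 h. IL-6 plus HGF minus IL-6 was 0.35 at 2 h.

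**Figure D1:**
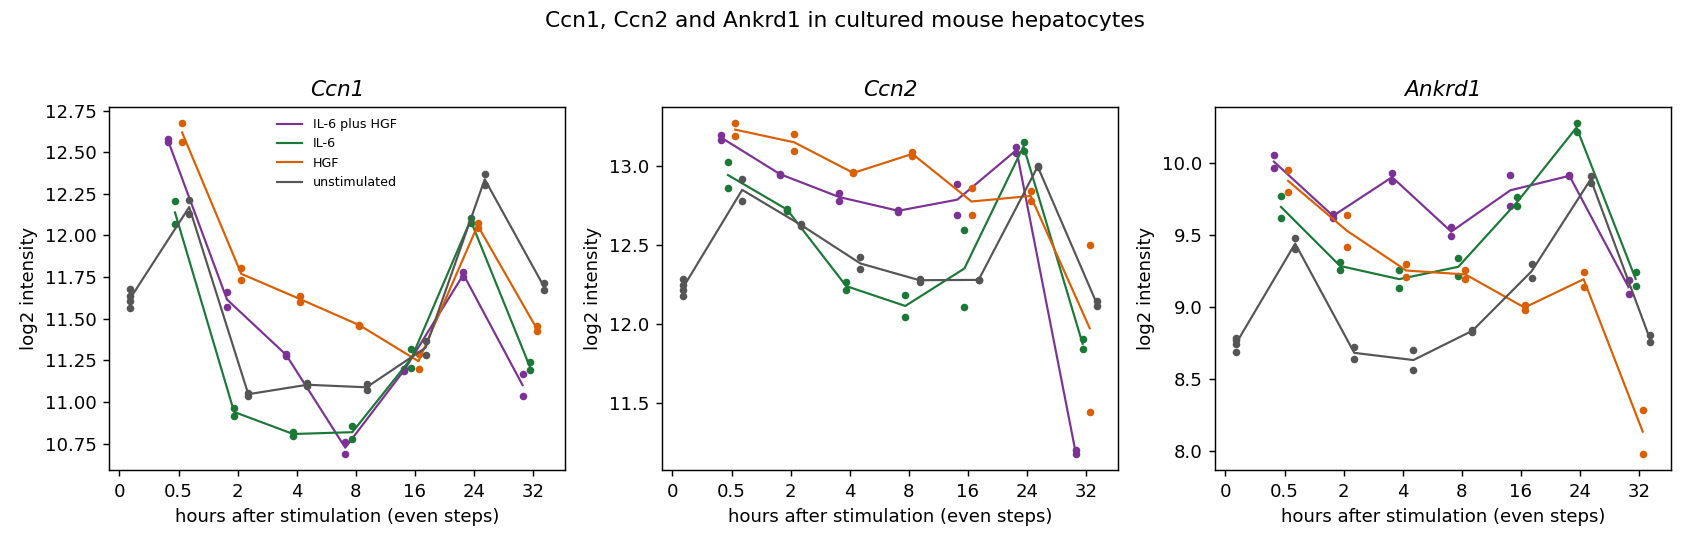
Log2 intensity of Ccn1, Ccn2 and Ankrd1 (vertical axes) against hours after stimulation (horizontal axes, even steps). Points are arrays and lines join the means of IL-6 plus HGF, IL-6, HGF and unstimulated cells; Ccn2 under HGF at 32 h has arrays at 12.50 and 11.44, and Ankrd1 under HGF ends below every other arm.

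When both stimuli were given, these 3 genes followed neither stimulus throughout. The F-test of IL-6 plus HGF against HGF was passed by 8 of the 9 members, 5 higher and 3 lower, where 41.6% of all genes passed, 17.7% higher and 23.9% lower. Axl did not pass (adjusted p = 0.0867). Against IL-6 alone 8 members passed, 5 higher and 3 lower, where 44.1% of all genes passed, 23.2% higher and 20.9% lower, and Ajuba did not (adjusted p = 0.0949). In IL-6 against HGF all 9 passed, 4 higher and 5 lower, beside 51.2% of all genes, 22.3% higher and 28.9% lower. None of these 3 contrasts crosses the dap difference of the early hours. On stimulated arrays of 0.5 to 4 h bioB ranged from 5.70 to 8.47, and its part in these contrasts was not tested. Comparisons that share an arm are not independent of each other, and their values are given side by side.

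For Ccn1, IL-6 plus HGF gave 11.57 and 11.66 at 2 h, near HGF at 11.80 and 11.73 and above IL-6 at 10.92 and 10.96. By 8 h the combination read 10.69 and 10.76, against 11.47 and 11.46 under HGF, a difference of -0.74 (SE 0.05, 0.600-fold, adjusted p = 4.52e-18). It had thus come to the side of IL-6, which stood at 10.86 and 10.78. Against unstimulated cells the combination differed by 0.57 at 2 h, -0.36 at 8 h and -0.59 at 32 h. IL-6 minus HGF was -0.83 at 2 h and -0.64 at 8 h for this gene, and 0.02 and 0.03 at 16 and 24 h.

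Ccn2 under the combination kept above unstimulated cells from 0.5 to 16 h, by 0.32 to 0.51. At 32 h it read 11.18 and 11.20, against 12.14 and 12.11 in unstimulated cells, a difference of -0.94 (SE 0.13, 0.522-fold, adjusted p = 9.88e-09). Both combination arrays were below all other arrays for this gene. The 32 h difference from HGF was -0.78, but it was -0.25 without the HGF array at 12.50 and -1.31 without the one at 11.44. Against IL-6, whose arrays read 11.90 and 11.84 at 32 h, it was -0.68. IL-6 minus HGF peaked at 8 h, at -0.96 (SE 0.13, adjusted p = 3.68e-09), with IL-6 at 12.04 and 12.18 and HGF at 13.06 and 13.09.

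Ankrd1 reached its largest difference from unstimulated cells under the combination at 4 h, where it read 9.93 and 9.87, against 8.56 and 8.70. That is 1.27 (SE 0.07, 2.41-fold, adjusted p = 3.62e-23), and the second probe set gave 0.89. Within that hour, IL-6 arrays read 9.25 and 9.13 and HGF arrays 9.21 and 9.30, so that the combination lay above both single stimuli, by 0.71 over IL-6 and 0.65 over HGF. From 16 h the combination lay above HGF throughout. It overlapped IL-6 at 16 and 32 h and lay below it at 24 h, by -0.34. At 32 h it read 9.19 and 9.09, against 8.29 and 7.98 under HGF, a difference of 1.00 (SE 0.07, 2.01-fold, adjusted p = 6.45e-20). IL-6 minus HGF was 1.06 at the same hour. The second probe set gave 0.89 for the combination minus HGF and 1.15 for IL-6 minus HGF there.

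Amotl2, the angiomotin that retains YAP, lay below unstimulated cells under HGF and above them under the other stimuli at 24 and 32 h. At 24 h the combination read 10.77 and 10.75, IL-6 10.64 and 10.72, HGF 10.26 and 10.08, and unstimulated cells 10.35 and 10.62. HGF lay below all the other arms, and the combination exceeded it by 0.59 (SE 0.07, 1.51-fold, adjusted p = 4.49e-14). IL-6 exceeded HGF at all 7 hours without overlap, by 0.06 at 0.5 h and 0.56 at 32 h. Against unstimulated cells, the combination differed by -0.40 at 2 h and 0.47 at 16 h, IL-6 by -0.16 at 2 h and 0.32 at 32 h, and HGF by -0.36 at 2 h and -0.32 at 24 h. At 2 h all stimulated arrays thus lay below the unstimulated ones. The combination differed from IL-6 by -0.24 at 2 h (adjusted p = 0.00909), a call that was lost without the combination array at 9.42 (adjusted p = 0.0567).

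Lats2, the kinase gene, was higher than in unstimulated cells under all 3 stimuli on the probe set used. At 16 h the combination read 8.71 and 8.72, IL-6 8.39 and 8.57, HGF 8.68 and 8.62, and unstimulated cells 7.99 and 8.26. The differences from unstimulated cells were 0.59, 0.36 and 0.53 in the order of the stimuli just given (SE 0.10 each). All were past the F-test, with adjusted p of 1.80e-09 for the combination, 0.000172 for IL-6 and 1.40e-07 for HGF, and the IL-6 difference was 0.22 without the unstimulated array at 7.99. Lats2 has 6 probe sets of its own. The second by intensity gave 0.53, 0.41 and 0.50 for the same contrasts and correlated with the first at 0.91 over the 29 group means. The third correlated at -0.63 and gave 0.01, 0.12 and -0.05, and the fourth gave 0.27, 0.08 and 0.08. With the mean over probe sets, the IL-6 call was lost (0.17, adjusted p = 0.0674). The probe set used, like that of Ccn1, is of a kind that may cross-hybridise. Between stimuli, the calls for Lats2 lay near the threshold (adjusted p = 0.0172, 0.0309 and 0.0400 for the combination against HGF, the combination against IL-6 and IL-6 against HGF) and leaving out single arrays ended each of them. The combination's difference from IL-6 at 0.5 h was 0.25 with all arrays, and 0.069 without the first IL-6 array of that hour (adjusted p = 0.0821).

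Ajuba, the inhibitor of LATS, had its largest differences from unstimulated cells in the hours that cross the dap difference. At 2 h it read 10.58 and 10.54 under the combination, 10.65 and 10.66 under IL-6 and 10.80 and 10.77 under HGF, against 11.05 and 11.10 in unstimulated cells. The differences were -0.52, -0.42 and -0.30 in that order. The value of -0.39 given earlier for Ajuba is itself computed from differences between stimulated and unstimulated cells. It is therefore no independent measure of the dap difference, whose part in the contrasts at 2 h was not tested. Over 8 to 32 h the largest difference from unstimulated cells was 0.22 for the combination, 0.11 for IL-6 (adjusted p = 0.162) and -0.20 for HGF. At 24 h, the combination's arrays at 11.42 and 11.48 lay above those of HGF at 11.16 and 11.18, by 0.28 (SE 0.05, adjusted p = 6.94e-07).

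**Figure D2:**
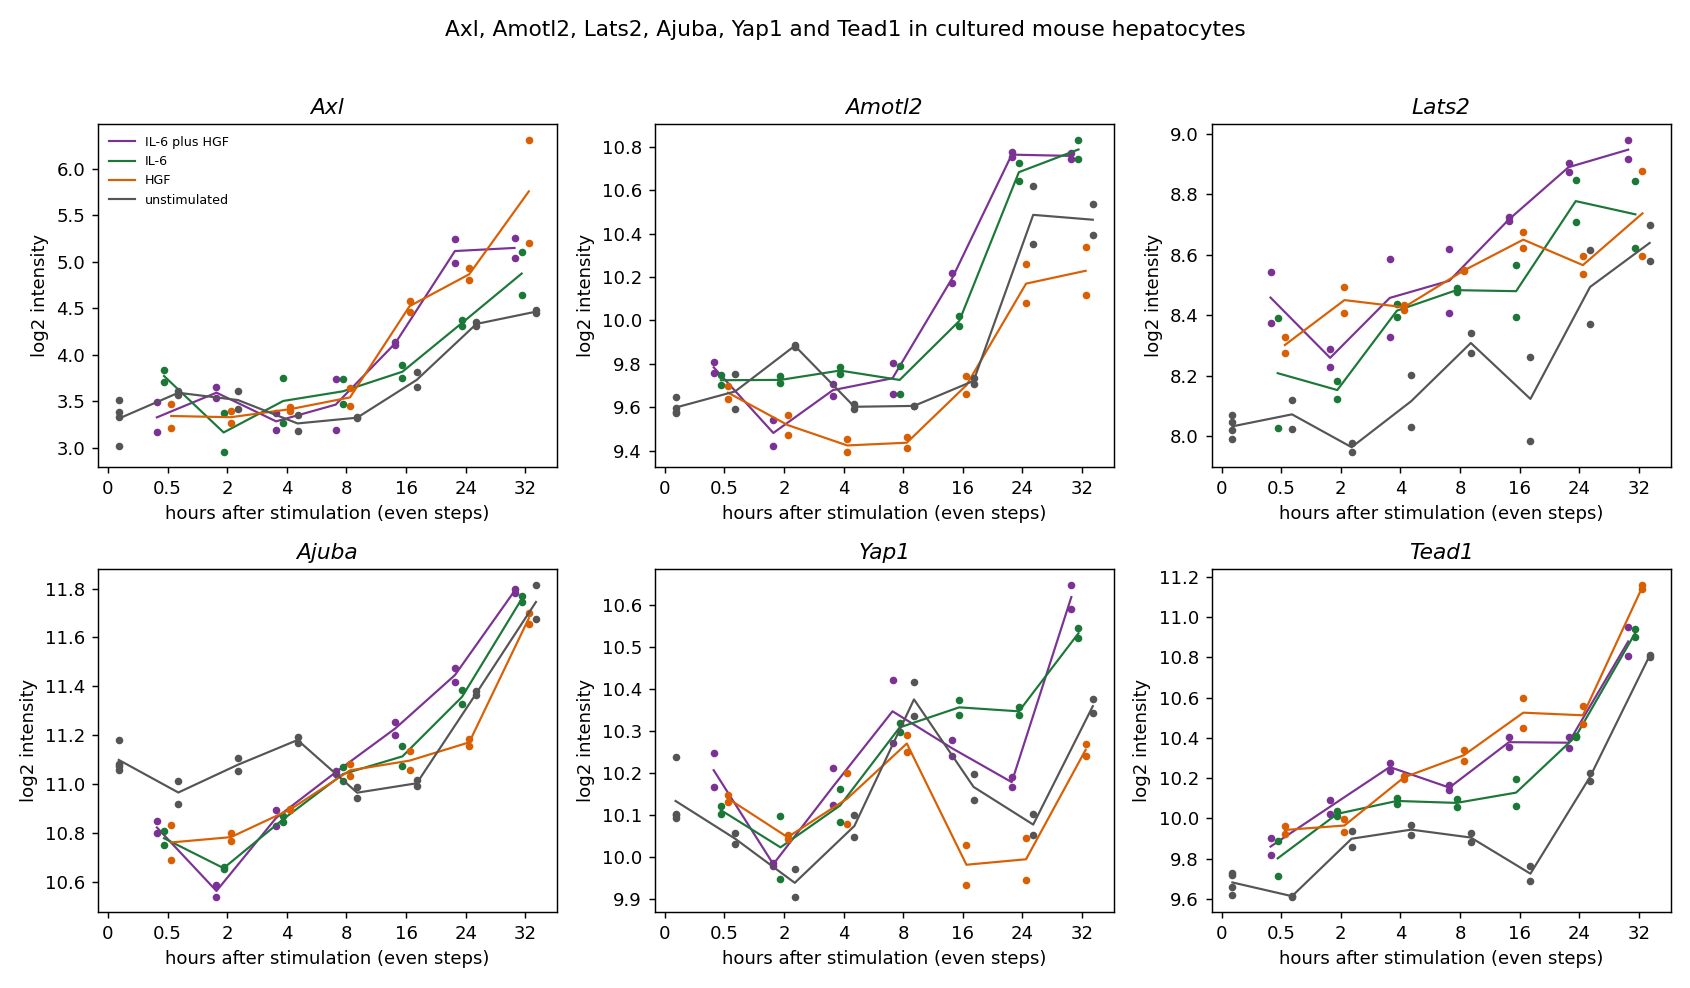
Log2 intensity of Axl, Amotl2, Lats2, Ajuba, Yap1 and Tead1 (vertical axes, each with its own range) against hours after stimulation (even steps). Points are arrays and lines join group means. Amotl2 under HGF ends below the other arms, and Ajuba in unstimulated cells stands apart at 0.5 to 4 h. On the probe set used, Tead1 climbs in every arm, ending highest under HGF.

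Yap1 varied little. Its array values lay between 9.91 and 10.65 throughout. At 16 h IL-6 arrays read 10.34 and 10.37, against 9.93 and 10.03 under HGF, and IL-6 minus HGF was 0.37 (SE 0.05, adjusted p = 5.16e-10). Unstimulated cells at that hour lay between them, at 10.20 and 10.14. Against unstimulated cells HGF differed by -0.19 at 16 h (adjusted p = 0.00125), IL-6 by 0.27 at 24 h (adjusted p = 8.45e-06) and the combination by 0.26 at 32 h (adjusted p = 5.80e-05). The combination exceeded HGF by 0.36 at 32 h (SE 0.05, adjusted p = 4.55e-08). The second Yap1 probe set correlated with the first at 0.36 only and gave -0.03, 0.22 and 0.21 for these 3 contrasts with unstimulated cells. The call of the combination against IL-6 (-0.17 at 24 h, adjusted p = 0.0245) was lost without the first IL-6 array of 24 h (adjusted p = 0.0699) and without the first combination array of that hour (adjusted p = 0.0759).

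Tead1, the gene of the DNA-binding partner, was higher under each stimulus. At 16 h the combination read 10.40 and 10.35, IL-6 10.20 and 10.06, HGF 10.45 and 10.60, and unstimulated cells 9.69 and 9.76. All stimulated arrays lay above both unstimulated ones. The differences were 0.65 for the combination (SE 0.05, adjusted p = 2.79e-15), 0.40 for IL-6 (SE 0.05, adjusted p = 1.95e-09) and 0.80 for HGF (SE 0.05, 1.74-fold, adjusted p = 4.15e-19). The second probe set gave 0.74, 0.43 and 0.98. IL-6 minus HGF was -0.40 at 16 h (adjusted p = 2.83e-09), and the combination minus HGF was -0.27 at 32 h (adjusted p = 2.01e-05), where it read 10.95 and 10.81, against 11.16 and 11.14 under HGF. The second probe set gave -0.028 for that last contrast and did not pass (adjusted p = 0.0924).

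Axl was dim. Its probe set averaged 3.89, below the 40th percentile on all but 17 arrays, and it passed the intensity filter only through late arrays, so that a difference over time was built into its passing. At 32 h the combination read 5.26 and 5.04, IL-6 4.64 and 5.11, HGF 6.31 and 5.21, and unstimulated cells 4.45 and 4.48. The difference from unstimulated cells was 1.29 for HGF (SE 0.20, 2.45-fold, adjusted p = 1.41e-06) and 0.74 without the HGF array at 6.31. For the combination it was 0.78 at 24 h (SE 0.20, adjusted p = 0.00124), where the other probe set gave -0.28. IL-6 minus HGF was -0.88 at 32 h (SE 0.20, adjusted p = 0.000207), -0.33 without the HGF array at 6.31 and -1.44 without the one at 5.21. The other Axl probe set stayed between 2.46 and 3.53 on all arrays and gave 0.13 for HGF at 32 h (adjusted p = 0.509). The combination minus HGF was -0.61 at 32 h, with overlapping arrays, and passed over 8 to 32 h alone (adjusted p = 0.0379). Without the HGF array at 5.21 it was -1.16, and without the one at 6.31 it was -0.056.

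**Figure D3:**
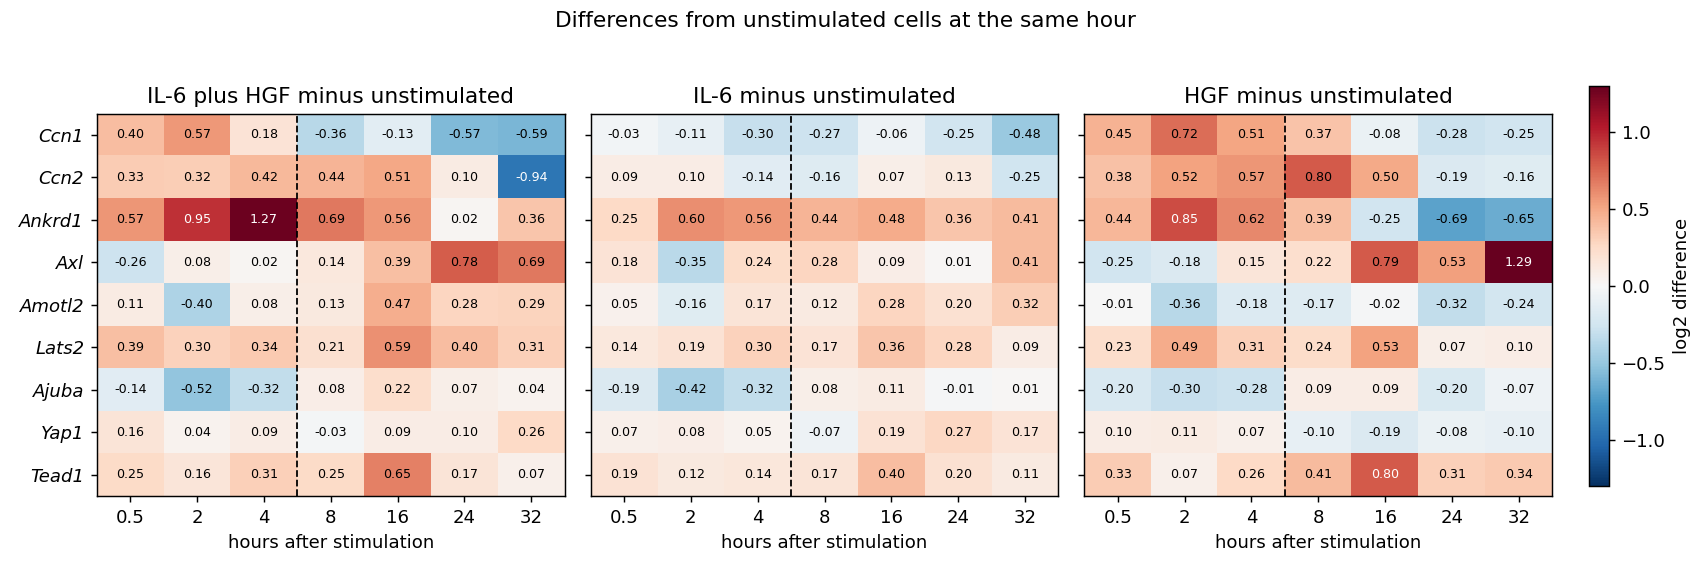
Log2 difference from unstimulated cells at the same hour for each of the 9 genes (rows) and hours (columns), with panels for IL-6 plus HGF, IL-6 and HGF. Red is higher and blue lower than unstimulated, and the dashed line parts the hours whose contrasts cross the dap difference (left) from those that do not; the HGF panel turns from red to blue for Ccn1, Ccn2 and Ankrd1, while Ankrd1 stays red under IL-6.

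The unstimulated cells themselves changed with time in culture. Against 0 h all 9 members passed, all higher at their largest difference. The rise of Axl is not independent of the intensity filter, which it passed only through late arrays, stimulated ones among them. In the same unstimulated cells 75% of all genes passed, 40.4% higher and 34.6% lower. Since the dap difference falls between 4 and 8 h in these cells, 2 tests that do not cross it were added after the data were seen. Over 0.5 to 4 h against 0 h, 7 members passed, 4 higher and 3 lower, beside 20.3% of all genes. Over 16 to 32 h against 8 h all 9 passed, 8 higher and Yap1 lower (-0.30 at 24 h), beside 65.7% of all genes.

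Ccn1, Ccn2 and Ankrd1 had 2 high points in unstimulated cells, at 0.5 and 24 h. Ccn1 read 12.13 and 12.21 at 0.5 h, against 11.56 to 11.68 on the 4 arrays of 0 h, without overlap, a difference of 0.55. It then stood below 0 h, by -0.57 at 2 h, and returned to 12.31 and 12.37 at 24 h, above 8 h (11.07 and 11.11) by 1.25 (SE 0.05, adjusted p = 3.49e-26). Ccn2 followed with 0.62 at 0.5 h against 0 h and 0.72 at 24 h against 8 h. For Ankrd1 these values were 0.69 and 1.05. At 32 h they differed from 0 h by 0.07 for Ccn1, -0.10 for Ccn2 and 0.03 for Ankrd1. The other 6 members differed from 0 h by -0.13 to 0.28 at 0.5 h. Tead1 was 1.13 above 0 h at 32 h (10.81 and 10.80, against 9.62 to 9.73), Amotl2 0.89 at 24 h, Ajuba 0.65 and Lats2 0.61 at 32 h. Under the other settings run, other probe sets and other hours among them, the Tead1 value ranged from 0.15 to 1.13. Axl read 1.15 at 32 h, but its passing the filter rested on late arrays, and its other probe set gave -0.18. Yap1 had its largest difference at 8 h (0.24), which its second probe set did not show (0.073, adjusted p = 0.758).

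Over the 29 group means, the correlations among members are a description of points that share arrays and culture time. Ccn1, Ccn2 and Ankrd1 correlated with each other at 0.46 to 0.61. Amotl2 and Ajuba (0.83), Lats2 and Tead1 (0.83), Tead1 and Axl (0.83) and Ajuba and Axl (0.81) had higher values, while Ccn2 and Yap1 stood at -0.59. Among all genes past the filter, the profile most like that of Ccn1 was Dusp1 (0.91), the gene of a phosphatase of MAP kinases, followed by the immediate early gene Ier2 (0.84). Nearest to Ankrd1 were Ier3 (0.82) and Rhob (0.81), and to Ccn2 Mphosph6 (0.84) and N6amt1 (0.83). Nearest to Amotl2 were Gpr137b and Sbsn (0.93 each), to Lats2 Msl2 (0.97) and Nars (0.94), to Yap1 Pds5b (0.86) and Ccdc6 (0.83), and to Tead1 Mdn1 and Cd2ap (0.96 each). Ajuba was nearest to Ccdc61 (0.96) and Specc1l (0.95), and Axl to Ascc2 (0.96) and Ppic (0.95).

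Whether the response to both stimuli differed from the sum of the single ones was tested as an interaction, the combination minus IL-6 minus HGF plus unstimulated cells. Of the members 6 passed, 3 higher and 3 lower, where 33.6% of all genes passed, 18.9% higher and 14.6% lower. Over 8 to 32 h 6 passed again, beside 19.7% of all genes. The interaction includes unstimulated cells, so in those hours it crosses the bioB difference, though not the dap difference. Ccn1 was lower than the sum at 8 h by -0.47 (SE 0.07, adjusted p = 5.38e-05): the combination differed from unstimulated cells by -0.36, IL-6 by -0.27 and HGF by 0.37. Ankrd1 was higher than the sum at 32 h by 0.59 (SE 0.11, adjusted p = 9.70e-07), where the combination differed by 0.36, IL-6 by 0.41 and HGF by -0.65. Under the other settings run, that interaction ranged from 0.37 to 0.59. At 2 h, an hour at which the interaction crosses the dap difference, that of Ankrd1 was -0.50.

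Amotl2 lay above the sum at 24 h by 0.40 (SE 0.09, adjusted p = 0.00233), or by 0.26 without the unstimulated array at 10.62. Ajuba did so at that hour by 0.29 (SE 0.06, adjusted p = 4.66e-06). Tead1 was below the sum at every hour, by -0.55 at 16 h (SE 0.07, adjusted p = 1.39e-09), where the combination gave 0.65, IL-6 0.40 and HGF 0.80. Axl was below it at 32 h by -1.02 (SE 0.29, adjusted p = 0.0194). That call was lost without the second IL-6 array of 32 h (-0.79, adjusted p = 0.0704) or the second combination array of that hour (-0.91, adjusted p = 0.0550), and its value was -0.47 without the HGF array at 6.31 and -1.57 without the other. Ccn2 (adjusted p = 0.213), Lats2 (0.0514) and Yap1 (0.0828) did not pass. Without the HGF array of 32 h at 11.44, the Ccn2 interaction was -1.06 at that hour (adjusted p = 6.23e-08), against -0.53 with it.

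**Figure D4:**
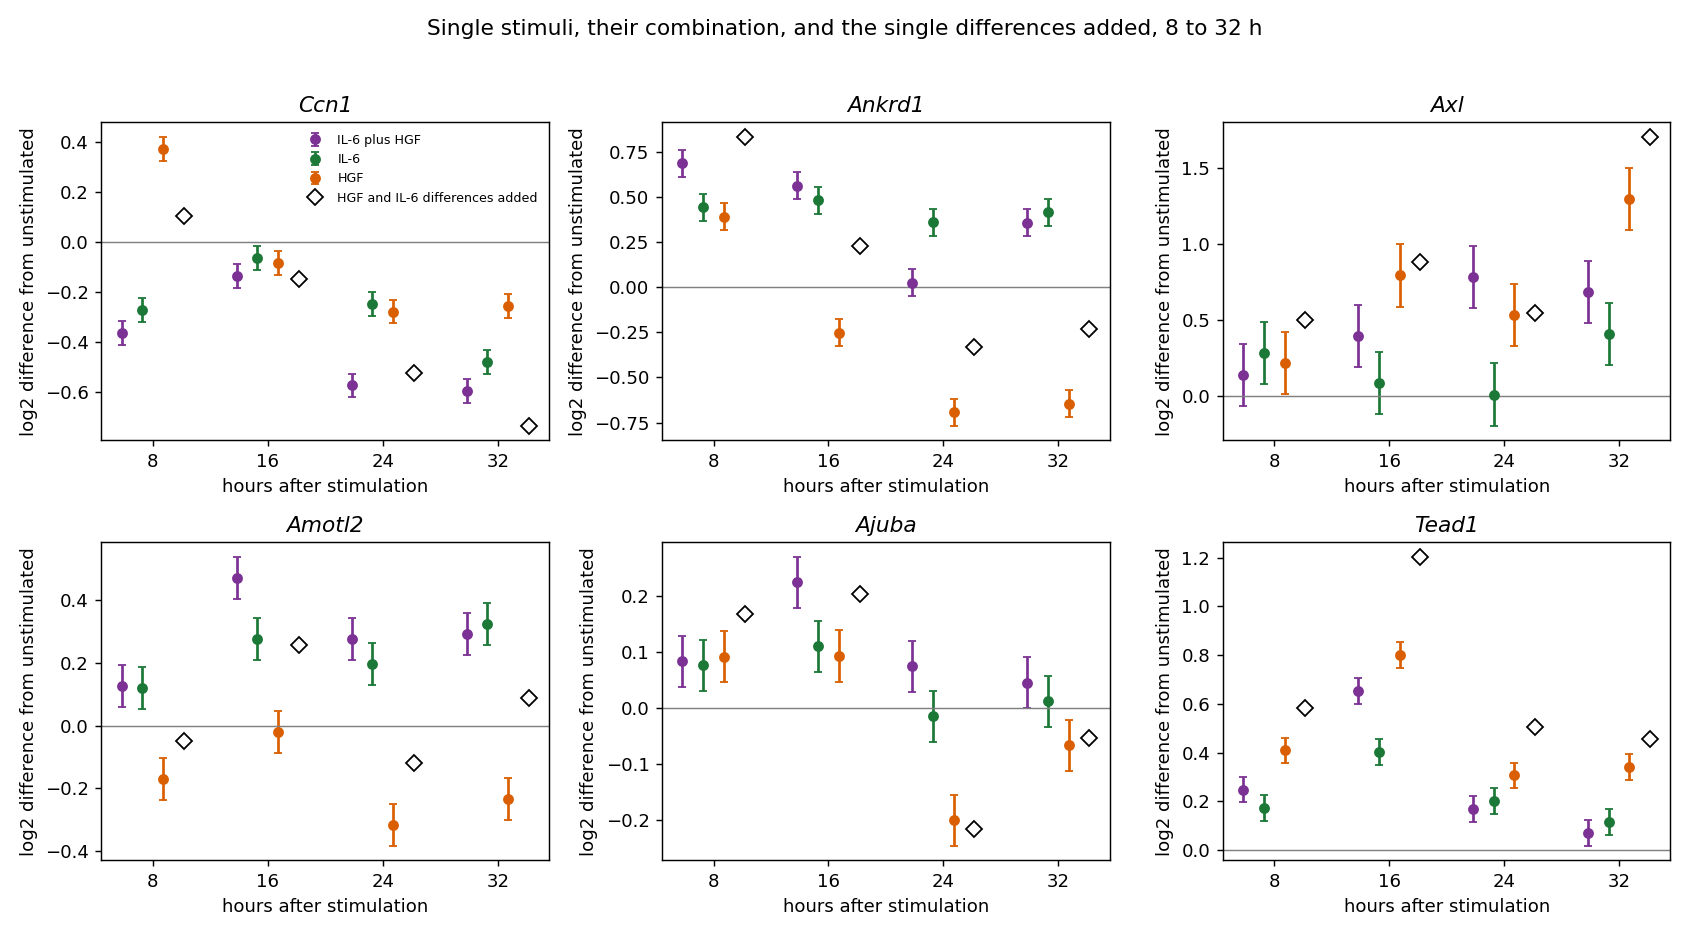
Log2 difference from unstimulated cells (vertical axes, each with its own range) at 8, 16, 24 and 32 h for the 6 members past the interaction test. Filled points are IL-6 plus HGF, IL-6 and HGF with bars of 1 SE, and open diamonds are the IL-6 and HGF differences added; Tead1 under the combination lies below the diamond at all 4 hours, and Ankrd1 and Amotl2 lie above it from 16 h.

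Other genes of the pathway were read from lists written from general knowledge. Of 21 measured genes of the Hippo kinase core and its upstream regulators, 15 were higher and 5 lower under IL-6 plus HGF, 10 and 5 under IL-6, and 13 and 5 under HGF, each against unstimulated cells. Of all genes, 31.3% were higher and 36.7% lower under the combination, 23.4% and 31.7% under IL-6, and 29.8% and 32.8% under HGF. These shares also stand beside the counts over all hours of the other lists. Over 8 to 32 h the counts of this list were 14 and 5, 12 and 2, and 10 and 5. In the same order, the shares of all genes over those hours were 28.5% and 28.7%, 18.7% and 23.3%, and 27.2% and 27.9%. Taking each gene's largest difference in those hours, the median over the list was 0.32 under the combination, 0.21 under IL-6 and 0.21 under HGF, beside 0.05, -0.08 and 0.10 over all genes. Taking each gene's mean difference over 16 to 32 h, it was 0.13 under the combination, 0.10 under IL-6 and 0.03 under HGF, beside 0.0036, -0.0047 and 0.01 over all genes. Rassf1, which encodes a scaffold of the MST kinases, was higher by 0.59 at 16 h under IL-6 (adjusted p = 7.76e-21), with 0.80 at 4 h and 0.57 at 16 h under the combination. Stk4, the gene of MST1, was higher by 0.64 at 24 h under the combination and by 0.56 at 16 h under HGF. Sav1, its adaptor, was higher by 0.49 at 8 h under IL-6, and Tjp1, a tight-junction scaffold, by 0.41 at 4 h and 0.21 at 16 h.

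Frmd6, an upstream FERM-domain protein, and Wwc1 (KIBRA), an activator of LATS, had the smallest adjusted p of this list between the stimuli. IL-6 minus HGF was -1.14 at 4 h for Frmd6 (SE 0.05, adjusted p = 3.37e-28) and 0.99 at 24 h for Wwc1 (SE 0.07, adjusted p = 6.26e-23). Against unstimulated cells HGF gave 0.91 at 4 h and 0.58 at 8 h for Frmd6, and -0.84 at 32 h for Wwc1. The combination exceeded HGF in Wwc1 by 0.64 at 8 h and was below it in Frmd6 by -0.59 at 4 h. In culture alone Rassf1 was 1.57 above 0 h at 32 h, Mob1b 1.05 and Mob1a 0.79, the last 2 encoding coactivators of LATS.

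Of the 6 further effectors and TEAD partners, 3 were higher and 2 lower under IL-6 plus HGF, 3 and 1 under IL-6, and 1 and 2 under HGF. Vgll3, a cofactor of TEAD, was the gene among them with the largest difference. It was higher by 2.98 at 24 h under the combination (SE 0.17, adjusted p = 8.39e-22) and by 2.52 under IL-6 (adjusted p = 8.77e-18), and the combination exceeded HGF by 2.67. Under HGF it read 0.34 at most and did not pass (adjusted p = 0.178). Tead2 was lower at 24 h by -0.85 under the combination and -0.81 under IL-6, and at 32 h by -0.82 under HGF. Wwtr1, which encodes TAZ, differed by no more than 0.34 from unstimulated cells at its largest. In unstimulated culture Tead2 rose by 3.24 and Wwtr1 by 1.54 over 0 h at 32 h, a contrast that crosses the dap difference.

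Among 14 further known targets of YAP and TAZ, 8 were higher and 3 lower under IL-6 plus HGF, 7 and 4 under IL-6, and 7 and 3 under HGF. They did not move as a block. Igfbp3, an insulin-like growth factor binding protein, was higher under HGF by 2.04 at 8 h (SE 0.17, adjusted p = 2.52e-18), and IL-6 minus HGF was -1.93 at that hour. Tgfb2, the gene of a TGF-β ligand, was lower at 24 h by -1.39 under the combination and -1.29 under HGF. F3, tissue factor, was higher by 1.17 at 4 h under the combination, 0.67 at 2 h under IL-6 and 0.98 at 2 h under HGF. Nt5e, which encodes the ectonucleotidase CD73, was lower by -0.94 at 16 h under IL-6 and -0.91 at 32 h under the combination, and IL-6 minus HGF was -1.20 (adjusted p = 1.54e-23). Nuak2, a kinase, was higher in IL-6 than in HGF by 1.09 at 32 h.

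The 15 measured SRF and actin genes ran mostly lower under HGF, with 1 higher and 14 lower over all hours, and 2 higher and 12 lower over 8 to 32 h. Under the combination 5 were higher and 8 lower, and under IL-6 5 and 5. The median of each gene's largest difference over 8 to 32 h was -0.29 under the combination, 0.13 under IL-6 and -0.39 under HGF, beside 0.05, -0.08 and 0.10 over all genes. The median of mean differences over 16 to 32 h was -0.16 under the combination, 0.05 under IL-6 and -0.20 under HGF. Mrtfb, a cofactor of SRF, read -0.85 at 24 h under HGF (SE 0.07, adjusted p = 1.20e-17). Vcl, vinculin, read -0.56 at 16 h (adjusted p = 1.27e-13). Fhl2, the exception, encodes a LIM-domain cofactor and was higher by 0.79 at 2 h and 0.62 at 8 h. In IL-6 against HGF, 11 of the 15 were higher and 3 lower, with Mrtfb at 0.80 and Vcl at 0.59 at 16 h. Of all genes 22.3% were higher and 28.9% lower in that comparison.

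The TGF-β list, whose genes feed into Ccn2 in other settings, had 8 of 11 higher and 2 lower under the combination, 4 and 4 under IL-6, and 8 and 2 under HGF. Tgfbr1, a receptor gene, was higher by 1.07 at 16 h under the combination (SE 0.05, adjusted p = 7.83e-29), 0.42 at 8 h under IL-6 and 0.64 at 8 h under HGF, with an interaction of 0.53 at 24 h (adjusted p = 4.85e-08). Skil, a feedback inhibitor, read 1.01 at 2 h under the combination. Of the ligands of Axl, Gas6 was lower under HGF by -1.05 at 16 h (SE 0.06, adjusted p = 1.70e-25) and under the combination by -0.85 at 8 h, but higher under IL-6 by 0.44 at 32 h. Pros1, protein S, was higher at 32 h by 1.69 under the combination and 1.78 under IL-6 (adjusted p = 5.88e-33), and under HGF it was higher by 0.50 at 0.5 h and read -0.50 at 24 h.

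**Figure D5:**
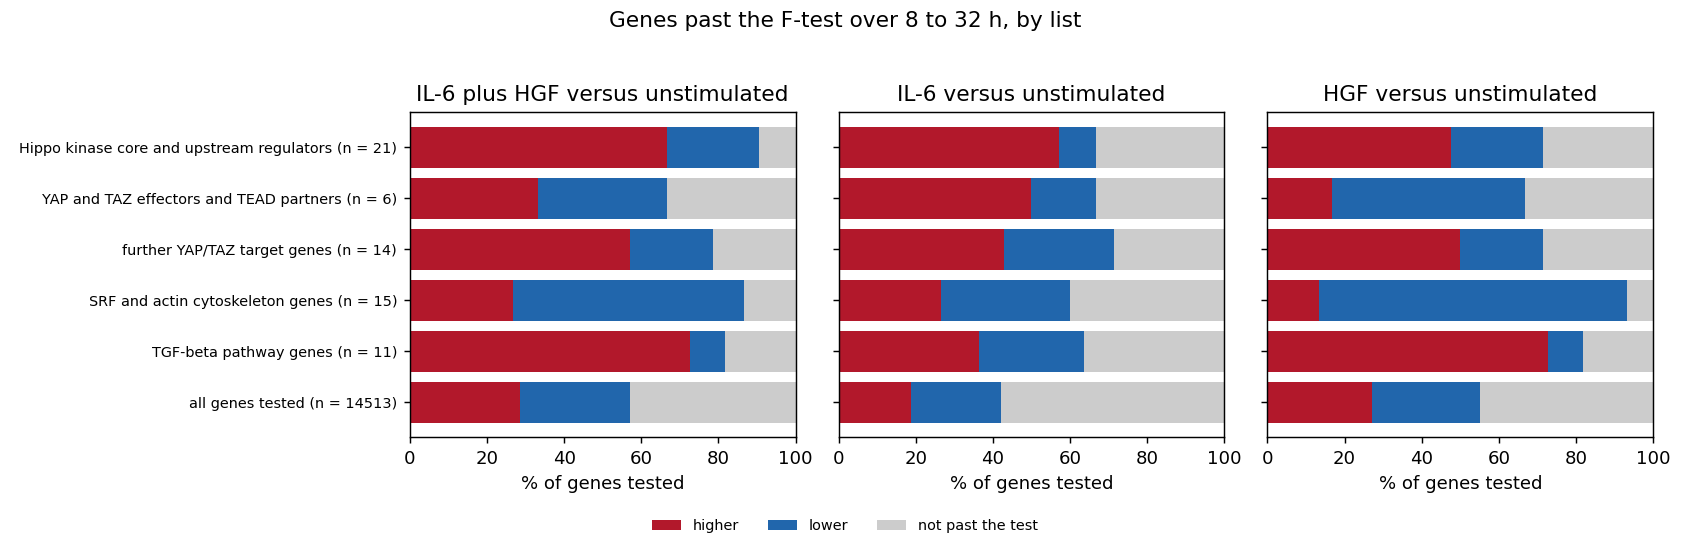
Share of the genes tested in each list (horizontal axes, %) that were higher (red), lower (blue) or not past the F-test (grey) over 8 to 32 h, with panels for IL-6 plus HGF, IL-6 and HGF against unstimulated cells and the number of genes beside each list name. Under HGF 12 of 15 SRF and actin genes were lower and 8 of 11 TGF-β genes higher, beside 27.9% lower and 27.2% higher over all genes.

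Ccn1, Ccn2, Ankrd1 and Axl are also expressed by stellate, endothelial and biliary cells, and in bulk RNA fewer cells of a type and less RNA per cell cannot be told apart. Markers of those cells were present. Sums of markers are given as the log2 of the summed intensities, in which the brightest markers weigh most. Of 10 stellate or fibroblast markers 8 passed the intensity filter. At 32 h their sum ranged from 8.92 to 8.94 under the combination, 9.07 to 9.14 under IL-6 and 8.49 to 8.56 under HGF. In unstimulated cells it was 8.76 to 8.83. Lrat and Lum did not pass. All 8 endothelial markers passed the filter. Under HGF 6 of them were lower and none higher over 8 to 32 h, with sums at 32 h of 8.60 to 8.62 under the combination, 8.84 to 8.94 under IL-6 and 8.50 to 8.51 under HGF, against 8.90 to 8.91 in unstimulated cells. Of 9 Kupffer cell or macrophage markers 7 passed (not Timd4 or Ptprc), and their sums at 32 h were 8.78 to 8.85 under the combination, 8.79 to 8.81 under IL-6 and 8.81 to 8.98 under HGF, against 8.83 to 8.85 in unstimulated cells.

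Of 6 cholangiocyte markers 4 passed (not Cftr, and Spp1 has no probe set of its own name). Under HGF 3 of the 4 were higher over 8 to 32 h. Their sum reached 9.35 under the combination at 32 h, 9.43 to 9.49 under IL-6 and 9.59 to 10.07 under HGF, against 9.05 to 9.10 in unstimulated cells, 8.49 to 8.52 in those cells at 8 h and 8.13 to 8.29 at 0 h. At 32 h this sum, Axl and Tead1 each had their highest mean under HGF. At 2 h the sum averaged 9.01 under HGF, against 8.43 in unstimulated cells, a contrast that crosses the dap difference. In that contrast Tead1 differed by 0.07 and Axl, dim at that hour, by -0.18. Whether the sum and these genes move together was not tested. The brightest genes of the sum were Krt19 (6.46 to 9.72 over all arrays) and Sox9 (6.43 to 8.51), and Sox9 is itself a gene that YAP is known to act on in liver. Of 4 mesothelial markers only Msln passed, at 3.80 to 4.43. The summed hepatocyte markers averaged 14.84 under the combination at 32 h, 15.03 under IL-6 and 15.10 under HGF (arrays at 15.01 and 15.19), against 15.19 in unstimulated cells (arrays at 15.17 and 15.21). At 0 h they read 15.95 to 15.97. The part of other cell types in the results on the 9 genes was not tested.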

How the data were processed

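Affymetrix Mouse430_2 arrays were hybridised with biotin-labelled cRNA, per the labels' protocols. The authors deposited 1 log2 intensity for each of 45101 probe sets and 60 arrays. The summarisation method and the scaling are not given in the sources used here. The array medians lay between 4.88 and 4.97, so the values were used as deposited. No pair of arrays, of 1770, was identical. Precision is limited by the small number of arrays.

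Probe sets with 1 symbol (34958) represented 18194 genes, each by its brightest probe set, and 932 with several symbols and 9211 without were left out, among them 1 shared by Lats2 and Xpo4. A model with 1 mean per group was fitted to all arrays with limma 3.58.1 in R 4.3.3 (mean-variance trend, 31 residual degrees of freedom) and tested on simulated data. Tests were F-tests over 7 hours, for 8 comparisons. Alternatives were quantile normalization, no filter or a 60th percentile filter, other probe sets, a fit to the arms compared, a block for replicate number, other variance models, 8 to 32 h only and leaving out each array. Sequences are from RefSeq, GRCm38.p6.

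The members and lists were chosen with earlier results of these data known. Named are all members, the 3 genes of a described list with the smallest adjusted p, some of them left out for space, and the 2 genes whose profile is most like that of a member.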

Additional observations from a re-analysis of the deposited data

Results flagged for a closer look

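Among the 9 genes, 6 responses to HGF differed with and without IL-6, by the interaction test of the report, which 33.6% of all genes passed. The interaction was -0.47 for Ccn1 at 8 h, 0.59 for Ankrd1 at 32 h, 0.40 for Amotl2 at 24 h, -0.55 for Tead1 at 16 h, 0.29 for Ajuba at 24 h and -1.02 for Axl at 32 h, all on the log2 scale. The value for Axl is that of a dim probe set and rests on single arrays of 32 h.

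Of the 4 unstimulated arrays at 0 h, the one with the highest Yap1 value (10.24) stood apart from the other 3 (10.09 to 10.10), with a gap of 0.93 of the whole range. Chance alone marks about 1 in 20 such groups, and the 9 genes gave 9 groups of this size.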

How the results depend on the processing

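The counts of members past the test kept within 1.5 times their value in all 8 comparisons and under every alternative run. Leaving out 1 array at a time gave counts of 9 throughout for HGF and for IL-6 plus HGF against unstimulated cells and for culture against 0 h, and 7 for IL-6. Between stimuli they ranged from 7 to 9 for IL-6 plus HGF against HGF, from 7 to 8 against IL-6 and from 8 to 9 for IL-6 against HGF, and the interaction had 5 to 8. Of 2178 values of single members without 1 array, 2132 kept their call, 25 lost it and 21 gained it. A turn of direction was counted only where the value or its main counterpart was past the test, and there was none. Among values not past the test, the Ccn2 interaction went from -0.53 to 0.0028 without the HGF array of 32 h at 12.50. Of the calls lost or gained, Lats2 accounts for 36, Axl and Yap1 for 4 each and Amotl2 and Ccn2 for 1 each.

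Of 730 values under other settings 690 counted as unchanged by the same rule. Axl under IL-6, which did not pass, is among them, although its other probe set gave -0.12, against 0.41. Another 14 values turned in direction. With the other probe set, Axl came to -0.28 for IL-6 plus HGF against unstimulated cells, -0.068 against IL-6 and -0.18 for culture. Over 8 to 32 h alone, Ankrd1 under HGF was -0.69, Ajuba under IL-6 0.11 and under IL-6 plus HGF 0.22. In IL-6 plus HGF against IL-6 Ccn1 was -0.33, Ankrd1 -0.34 and Amotl2 0.20, and Lats2 in IL-6 against HGF was 0.21. Those follow from the hours left out. In culture over 0.5 to 4 h, Ccn1 was -0.57, Yap1 -0.19 and Ajuba -0.13, and over 16 to 32 h against 8 h Yap1 was -0.30. A further 20 lost the call and 6 gained it, and the cause was not tested.

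With the replicate number as a block, 71 of 72 member values counted as unchanged by that rule, and Lats2 in IL-6 against HGF lost the call (-0.30, adjusted p = 0.0547). The count of all genes called for HGF was 9092 with the block, against 9082 without. Residuals of same-numbered arrays correlated at a median of -0.000435 over 406 pairs of groups (-0.27 to 0.25), with 31 pairs above 0.1. The median shows no pairing by number across all groups, and cannot exclude it among some of them. With 2 arrays per group and Axl below most of its array, small differences in dim genes were not detectable.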
